A study of Mus musculus with 6 samples.

Results

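Cxcl1, Cxcl2, Cxcl3, Cxcl5 and Ppbp encode 5 neutrophil-attracting CXC chemokines that lie in a cluster in the mouse genome, and their mRNA was described in Lewis cells, a mouse lung carcinoma line, kept for 24 hours with SD70, an inhibitor of the histone demethylase KDM4C, or with its vehicle, DMSO. The 5 genes were picked by symbol out of 16081 listed genes, with their read counts and FPKM values under SD70 and DMSO already known. Their difference between SD70 and DMSO is therefore given as a description. They were part of the fit over all genes, but no p-value is given for them. RNA-seq libraries were made from 3 DMSO and 3 SD70 samples of this 1 cell line, all grown in the same medium, and no source used here gives the SD70 dose of this experiment or says of these samples that the 3 of a group were separate cultures, although the study's methods state in general that experiments were repeated independently. P-values of other genes thus measure the spread between these samples, which may be in part technical. The study used RNA-seq to look for genes through which KDM4C inhibition in tumor cells could act on immune cells.

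Chemokines are small secreted proteins that guide the movement of leukocytes. These 5 carry the Glu-Leu-Arg (ELR) motif ahead of their CXC cysteines, act through the receptor Cxcr2 (Ppbp once it is trimmed), and draw neutrophils out of the blood into inflamed tissue and tumors. Many cell types make them when interleukin 1, tumor necrosis factor, interleukin 17 or Toll-like receptor ligands activate NF-kB, whereas Ppbp, the precursor of the platelet protein NAP-2, is best known from megakaryocytes and platelets.

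The bases just upstream of each gene are shown because 3 of the genes with much higher levels under SD70 share a stretch there that resembles an NF-kB motif. Of the 5 genes, 4 had an entry in the RefSeq promoter table (build GRCm38.p6). Cxcl5, which had the highest fold change of the 5, had no entry, so its upstream bases were not searched. For each of the 4, the 250 bases before the start are printed 5′ to 3′ on the + strand, with any match to GGANTTTCC in capitals. They lie at chr5:90890995-90891244 (Cxcl1), chr5:90903649-90903898 (Cxcl2), chr5:90785851-90786100 (Cxcl3) and chr5:90768268-90768517 (Ppbp).
Cxcl1: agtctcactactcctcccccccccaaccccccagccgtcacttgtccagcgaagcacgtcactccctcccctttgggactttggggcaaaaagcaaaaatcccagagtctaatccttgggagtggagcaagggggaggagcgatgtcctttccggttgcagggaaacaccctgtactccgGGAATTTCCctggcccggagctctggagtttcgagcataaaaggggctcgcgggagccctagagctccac
Cxcl2: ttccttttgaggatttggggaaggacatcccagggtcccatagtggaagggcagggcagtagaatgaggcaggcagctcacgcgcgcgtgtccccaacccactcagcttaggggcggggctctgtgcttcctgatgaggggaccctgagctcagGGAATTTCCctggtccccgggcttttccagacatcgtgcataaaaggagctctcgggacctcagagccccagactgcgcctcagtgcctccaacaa
Cxcl3: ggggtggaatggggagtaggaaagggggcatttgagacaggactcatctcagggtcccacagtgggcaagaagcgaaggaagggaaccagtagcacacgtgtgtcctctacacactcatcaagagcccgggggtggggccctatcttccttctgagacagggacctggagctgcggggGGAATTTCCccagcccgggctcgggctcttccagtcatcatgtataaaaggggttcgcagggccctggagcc
Ppbp: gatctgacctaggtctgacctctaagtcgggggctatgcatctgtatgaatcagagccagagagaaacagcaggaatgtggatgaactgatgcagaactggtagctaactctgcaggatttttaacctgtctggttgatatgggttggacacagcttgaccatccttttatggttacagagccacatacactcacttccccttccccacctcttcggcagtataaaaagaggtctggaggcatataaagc

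The letters GGANTTTCC, searched on both strands, matched as GGAATTTCC in Cxcl1 from 70 to 62 bases before the start, in Cxcl2 from 96 to 88 and in Cxcl3 from 72 to 64. Ppbp held no match. Across 27025 promoters of the same length, 1.05% held a match. ATAAAA, which resembles a common core promoter box and was searched on the gene's own strand, was found in Cxcl1 from 34 to 29 bases before the start, in Cxcl2 from 57 to 52, and in both Cxcl3 and Ppbp from 29 to 24, against 10.8% of promoters. TGANTCA, a run like that bound by AP-1 and searched on both strands, was found in Ppbp alone of the 4, from 204 to 198 bases before the start, and in 6.87% of promoters. TTNNGNAA, which resembles C/EBP motifs, was found in Cxcl2 from 236 to 229 bases before the start and in 36.9% of promoters, while TGATGNAA, which resembles ATF4 motifs, was found in none of the 4 and in 3.53% of promoters. Aligned over their length, the Cxcl2 and Cxcl3 stretches had the highest identity, 54.7%, followed by Cxcl1 and Cxcl3 with 49.0%, Cxcl3 and Ppbp with 47.7% and Cxcl1 and Cxcl2 with 47.2%. Ppbp had 46.5% identity with Cxcl1 and 43.5% with Cxcl2. These matches describe letters, not binding, and the motifs were chosen with the sequences and the levels of these genes known.

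Totals ranged from 15276744 to 17060424 expected counts per sample, and between 14062 and 14105 genes had a count above 0. Of 12 epithelial markers, 8 were listed and 2 were tested. Krt8 had 3925, 4150 and 4060 counts under DMSO and 2498, 2875 and 2382 under SD70 (log2 fold change -0.55, edgeR adjusted p = 3.28e-11, not called). Krt18 fell from 92, 77 and 101 counts to 36, 41 and 31 (log2 fold change -1.22, edgeR adjusted p = 2.97e-07). Whether this bears on the chemokines was not tested. By contrast, Epcam, Cdh1, Krt7, Krt19 and Sftpc had at most 1 count in any sample. Most of these 5 are general epithelial genes, so the lung origin was not judged from them. Of 10 neutrophil markers, 8 were listed, none of those with more than 6 counts in a sample, and their summed normalized count was 10.7 to 14.4 with DMSO and 4.4 to 9.13 with SD70. Ptprc, the gene of the leukocyte surface protein CD45, had 0 counts under DMSO and 2, 1 and 2 under SD70. In bulk RNA, a change in the number of cells that make a transcript and a change in RNA per cell cannot be told apart.

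Cxcl1, Cxcl2, Cxcl3 and Cxcl5 were all several-fold higher with SD70, and Ppbp was close to its DMSO level. All 5 passed the filter on low counts, and 4 of the 5 met the thresholds used to call genes, an edgeR adjusted p-value under 0.01 and a change of at least 1 on the log2 scale. Of the 11552 genes tested, 5.9% were called, 3.29% higher and 2.61% lower with SD70. Since the genes were picked with these values known, nothing is read from their count.

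**Figure D1:**
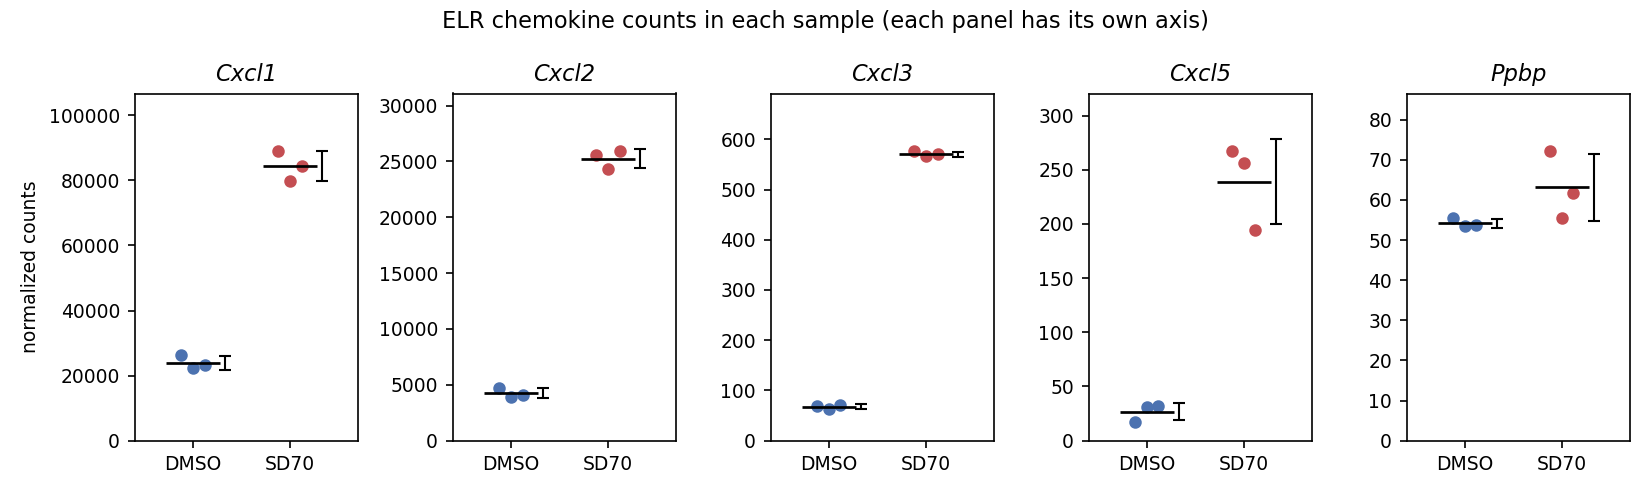
Normalized counts (vertical axis, counts per sample scaled to a common library size) of the 5 chemokines in the 3 DMSO (blue) and 3 SD70 (red) samples, with the mean as a line and the SD as a bar. Cxcl1, Cxcl2, Cxcl3 and Cxcl5 were separate between groups by a wide margin, and the SD70 samples of Ppbp, from 55.6 to 72.1, reached down to the DMSO samples at 53.4 to 55.5.

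Cxcl1, a main neutrophil attractant of the mouse and the most abundant of the 5, had 26893, 22944 and 24218 counts under DMSO and 87638, 80319 and 76745 under SD70. The lowest SD70 sample lay far above the highest DMSO sample. The normalized count was 23905 ± 2048 with DMSO and 84376 ± 4587 in the SD70 group (SD, n = 3 each), which is a log2 fold change of 1.82 (standard error, SE, 0.0564), or 3.53-fold. In normalized counts the difference was 60471, the largest increase of all 11552 genes tested, ahead of Ccl2, a monocyte attractant, with 30291.

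Cxcl2, which acts on the same receptor, had 4850, 4008 and 4292 counts under DMSO and 25232, 24457 and 23548 under SD70. The 3 SD70 values were close together and again far from the DMSO values. The normalized count was 4245 ± 431 with DMSO and 25266 ± 861 with SD70, a log2 fold change of 2.57 (SE 0.0594), or 5.95-fold. With SD70, Cxcl2 thus reached the count that Cxcl1 had with DMSO. Its difference of 21021 normalized counts was the fifth largest increase, after those of Cxcl1, Ccl2, Odc1 and Atf4.

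Cxcl3, a close relative of Cxcl2, was a low transcript with 71, 64 and 75 counts under DMSO and 568, 570 and 518 under SD70. Every SD70 sample lay above every DMSO sample. The normalized count was 67.8 ± 5.04 with DMSO and 571 ± 5.24 with SD70, a log2 fold change of 3.07 (SE 0.0983), or 8.41-fold. Of the 3587 different stretches of 50 bases in the GENCODE M21 transcripts of Cxcl3, 154 also occur in other genes, of which there are 78. Of these stretches, 126 occur in Cxcl2, which is 5.84% of its 2159 stretches. How reads that fit several genes were counted is not given in the sources used here, so reads from these stretches could have gone to Cxcl3, to another gene or to none, and the Cxcl3 counts are uncertain to that extent. Cxcl1 and Ppbp shared 0 such stretches with any other gene, and Cxcl5 shared 13 of 1876, none of them with the other 4.

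Cxcl5, a neutrophil attractant known mainly from epithelial and stromal cells, had 18, 32 and 33 counts under DMSO and 263, 258 and 176 under SD70. The DMSO sample 1 and the SD70 sample 3 were the low samples of their groups, yet the groups did not overlap. The normalized count was 26.8 ± 7.99 with DMSO and 239 ± 39.6 with SD70, a log2 fold change of 3.15 (SE 0.172), or 8.91-fold.

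Ppbp differed from the other 4. It had 57, 55 and 56 counts under DMSO and 71, 56 and 56 under SD70, and these counts overlapped. The normalized count was 54.2 ± 1.15 with DMSO and 63.1 ± 8.32 with SD70, a log2 fold change of 0.22 (SE 0.172), or 1.16-fold. After normalization the groups just separated, at 55.5 in the highest DMSO sample and 55.6 in the lowest SD70 sample. Over all genes tested, the normalized counts of 64.4% did not overlap between the groups, 32.8% being higher with SD70, so that separation alone is common in these libraries. Of the platelet and megakaryocyte markers, 7 of 10 were listed, and their summed normalized count was 24.3 to 28.3 with DMSO and 13.9 to 24.4 with SD70.

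**Figure D2:**
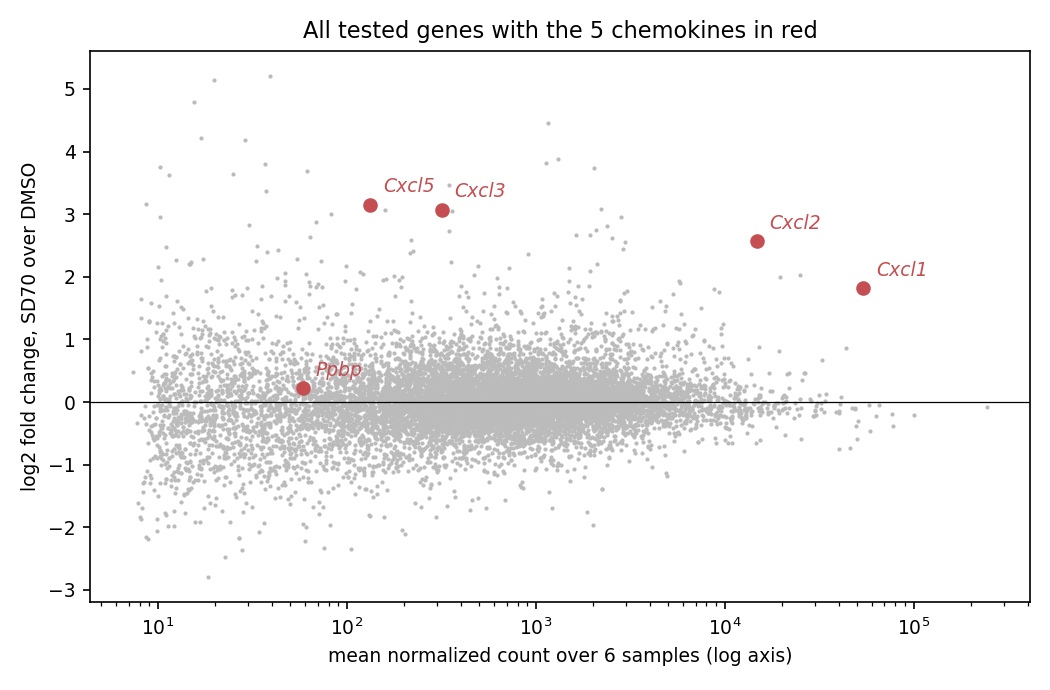
Log2 fold change of SD70 over DMSO (vertical axis) against the mean normalized count over the 6 samples (horizontal log axis) for all 11552 genes tested, with the 5 chemokines in red. Cxcl1 and Cxcl2 stood apart at high counts, where few genes had a log2 fold change above 1, while Cxcl3 and Cxcl5 lay among the highest fold changes of lower transcripts and Ppbp lay within the bulk.

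The size of the difference was not the same for the 5 genes, and the most abundant had the smaller fold changes among the 4 that were higher. The log2 fold change of Cxcl2 exceeded that of Cxcl1 by 0.75 (SE 0.0819), and that of Cxcl3 exceeded that of Cxcl2 by 0.5 (SE 0.115). Cxcl5 and Cxcl3 differed by 0.08 (SE 0.198), which is less than its error. Ppbp was below Cxcl5 by a difference of -2.94 (SE 0.243). Among the 11552 log2 fold changes ordered from the highest, Cxcl5 was at place 18, Cxcl3 at 20, Cxcl2 at 37, Cxcl1 at 97 and Ppbp at 3186.

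FPKM values, which are scaled by gene length and so allow levels to be compared between genes, spanned more than 3 orders of magnitude within the cluster. Cxcl1 was at 2061.41, 1742.89 and 1774.83 FPKM with DMSO and at 6820.93, 6074.67 and 6539.09 with SD70. Cxcl2 was at 319.12, 261.74 and 271.15 with DMSO and at 1685.36, 1590.38 and 1719.86 with SD70. These 2 genes were therefore high transcripts already without SD70. Cxcl3 was at 5.03, 4.5 and 5.1 FPKM with DMSO and at 40.88, 39.91 and 40.79 with SD70. Cxcl5 was at 0.72, 1.28 and 1.29 with DMSO and at 10.75, 10.31 and 7.84 with SD70. The latter pair went from low levels to levels that were still far below those of Cxcl2. Ppbp was at 3.75, 3.59 and 3.54 FPKM with DMSO and at 4.74, 3.64 and 4.09 with SD70.

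From the highest to the lowest FPKM, the order with DMSO was Cxcl1, Cxcl2, Cxcl3, Ppbp and Cxcl5, and with SD70 it was Cxcl1, Cxcl2, Cxcl3, Cxcl5 and Ppbp. In both groups neighbours in this order were separate in every sample. Only Ppbp and Cxcl5 exchanged places. The ratio of Ppbp to Cxcl5 was between 2.74 and 5.21 in the DMSO samples and between 0.353 and 0.522 in the SD70 samples. Cxcl3, next above Ppbp with DMSO, was also separate from it, with a Ppbp to Cxcl3 ratio between 0.694 and 0.798.

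**Figure D3:**
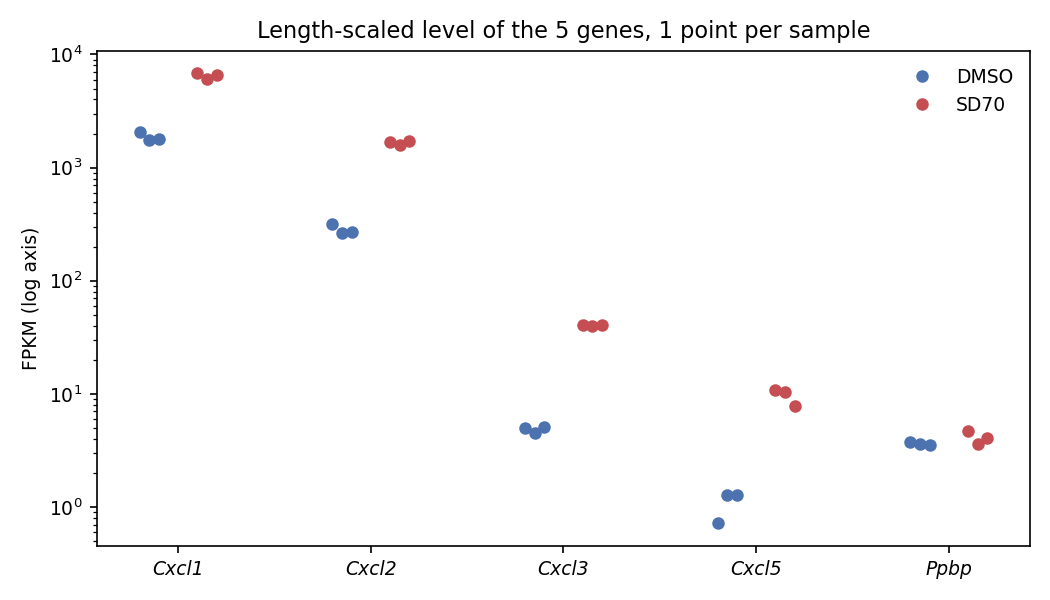
FPKM (vertical log axis) of the 5 chemokines, 1 point per sample, with DMSO in blue and SD70 in red. Cxcl1 and Cxcl2 lay above 200 FPKM in every sample, Cxcl3 and Cxcl5 moved up by similar distances from low levels, and Ppbp stayed between 3.54 and 4.74.

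The higher levels moved Cxcl1 and Cxcl2 into the top of the transcriptome. By read count, Cxcl1 was between place 41 and place 51 of the 16081 listed genes with DMSO and at place 3 in each SD70 sample. Cxcl2 went from between places 572 and 767 to between places 45 and 47. Cxcl3 went from between 9942 and 10101 to between 5921 and 5964, and Cxcl5 from between 10605 and 11053 to between 7998 and 8660. The places of Ppbp, between 10203 and 10226 with DMSO and between 9900 and 10142 with SD70, did not overlap but lay nearer to each other than those of Cxcl2, Cxcl3 and Cxcl5.

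Together the 5 genes took 0.19%, 0.161% and 0.168% of all counts under DMSO and 0.686%, 0.627% and 0.661% under SD70. The groups did not overlap, and the means were 0.173% ± 0.0147 and 0.658% ± 0.0295 (SD, n = 3 each), a ratio of 3.8. Cxcl1 alone took 0.146% ± 0.0122 with DMSO and 0.503% ± 0.0258 with SD70. As a share of summed FPKM, the 5 genes took 0.39% with DMSO and 1.5% with SD70.

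The mix within the cluster moved from Cxcl1 toward Cxcl2. Of the summed FPKM of the 5 genes, Cxcl1 made up 86.4% ± 0.149 with DMSO and 79% ± 0.562 with SD70, and Cxcl2 made up 13.2% ± 0.178 and 20.3% ± 0.559 (SD, n = 3 each). The ratio of Cxcl1 to Cxcl2 FPKM was 6.46, 6.66 and 6.55 under DMSO and 4.05, 3.82 and 3.8 under SD70. Within a group this ratio varied little, although both genes varied by more than counting error. The other 3 genes were minor parts of the mix, Cxcl3 with 0.227% and 0.495%, Cxcl5 with 0.0521% and 0.118%, and Ppbp with 0.169% and 0.0506% for DMSO and SD70 in that order.

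The genes also differed in how much samples of the same group varied. For Cxcl1 the coefficient of variation of normalized counts was 8.57% with DMSO and 5.44% with SD70, where counting alone would give 0.636% and 0.35%. For Cxcl2 it was 10.2% and 3.41%, where counting alone would give 1.51% and 0.64%. For Cxcl3 it was 7.44% and 0.918%, below the 12% and 4.26% that counting would give, and 3 samples leave such a value imprecise. For Cxcl5 it was 29.8% and 16.6%, against 19% and 6.56% from counting. For Ppbp it was 2.13% with DMSO and 13.2% with SD70, against 13.4% and 12.8% from counting. The counts were not separated by molecular identifiers, so these limits cover counting error only.

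Deviations from the group mean come from the same known counts, though not from the difference between groups. They had like signs for Cxcl1 and Cxcl2 in the DMSO samples and were small with SD70. In log2 normalized counts, Cxcl1 deviated from its DMSO mean by 0.14, -0.1 and -0.04 in samples 1 to 3, and Cxcl2 by 0.16, -0.12 and -0.04. With SD70 the deviations were 0.08, -0.08 and 0.0 for Cxcl1 and 0.02, -0.06 and 0.04 for Cxcl2. Pearson's r over the 6 deviations was 0.93. Cxcl5 deviated the other way in the DMSO samples, by -0.56, 0.27 and 0.29, and by 0.17, 0.12 and -0.29 in the SD70 samples, with r = -0.88 against Cxcl2 and -0.69 against Cxcl1. Cxcl3 had r = 0.51 with Cxcl2, 0.47 with Cxcl1 and -0.19 with Cxcl5. Ppbp had r = 0.66 with Cxcl1, 0.37 with Cxcl2, 0.18 with Cxcl3 and -0.03 with Cxcl5. These values describe 6 points that share libraries and depth and are centred within groups of 3, the DMSO samples carry most of them, and how often other gene pairs reach such an r was not computed.

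All 5 genes lie on the + strand of chromosome 5 within 146641 bases (GRCm38.p6, RefSeq). Cxcl5 is at chr5:90759298-90761625, Ppbp at chr5:90768518-90770063, Cxcl3 at chr5:90786101-90788093, Cxcl1 at chr5:90891245-90893121 and Cxcl2 at chr5:90903899-90905938. The main GENCODE M21 transcript has 4 exons in Cxcl1, Cxcl2, Cxcl3 and Cxcl5 and 3 exons in Ppbp. Ppbp, the gene with the small difference, sits between Cxcl5 and Cxcl3, the genes with the highest fold changes. Pf4, which encodes platelet factor 4 and lies between Ppbp and Cxcl3, had 0, 2 and 3 counts under DMSO and 5, 1 and 6 under SD70, and Cxcl15, an ELR chemokine of the lung between Cxcl3 and Cxcl1, had at most 1 count in any sample. The upstream 250 bases of Pf4 and Cxcl15 held no match to GGANTTTCC. Both genes were left out by the filter, so there is no fold change to set beside this.

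**Figure D4:**
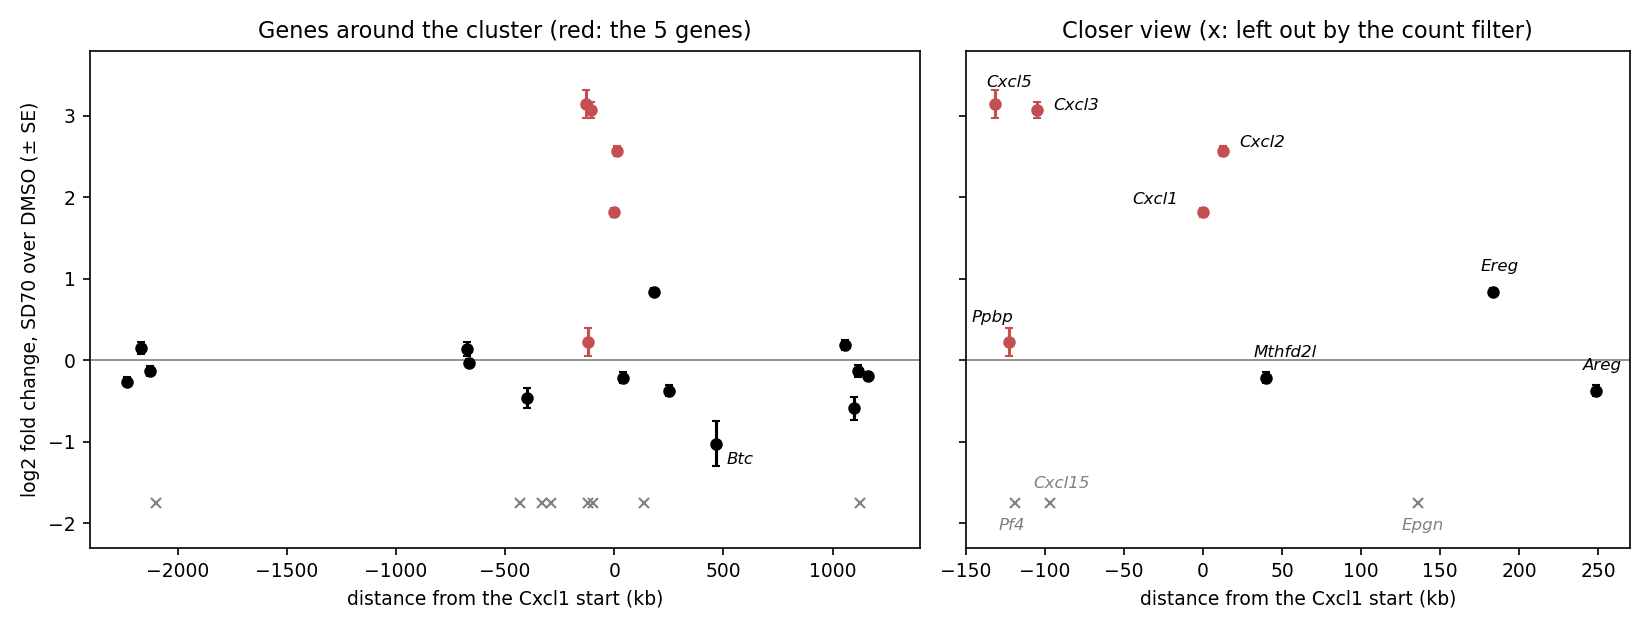
Log2 fold change of SD70 over DMSO (vertical axis, bars are the standard error) against the distance of each gene from the start of Cxcl1 in kilobases, for the cluster in red and its neighbours in black, with a wide view on the left and a closer view on the right. Grey crosses mark genes left out by the count filter and have no fold change. The chemokines other than Ppbp lay above 1.8, and no tested neighbour lay above 1.

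The genes around the cluster were described in the same way. Of the 22 other listed genes between the outermost members and the 10 nearest on each side, 14 were tested, 0 were called higher and 1 was called lower. Over all genes tested, 3.29% were called higher and 2.61% lower, so nothing is read from these counts among 14 genes. The median log2 fold change of the 14 was -0.16 against -0.004 over all genes tested. Mthfd2l, an enzyme of mitochondrial folate metabolism and the nearest tested gene after Cxcl2, had a log2 fold change of -0.21 (SE 0.0715, edgeR adjusted p = 0.013) and was not called. Ereg, which encodes the growth factor epiregulin and lies 183.4 kilobases after the Cxcl1 start, came closest to a call among higher neighbours, with a log2 fold change of 0.84 (SE 0.0537, edgeR adjusted p = 1.79e-15) that missed the fold threshold. Ereg was picked after its value was seen. Btc, the gene of betacellulin, was the neighbour called lower, with 46, 30 and 35 counts under DMSO and 12, 26 and 13 under SD70, a log2 fold change of -1.02 (SE 0.274, edgeR adjusted p = 0.00166). That call was lost in DESeq2 (adjusted p = 0.0195), and leaving out the DMSO sample 1, the SD70 sample 1 or the SD70 sample 3 gave log2 fold changes of -0.83, -0.81 and -0.91. On the other side, Afp, the nearest tested gene before Cxcl5, had a log2 fold change of -0.46 (SE 0.12, edgeR adjusted p = 0.00138) and was not called.

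Of the other CXC ligands, 8 of 10 were listed, 2 were tested and 1 was called. Cxcl10, a ligand of Cxcr3 that attracts T cells rather than neutrophils and lacks the ELR motif, had 17, 19 and 20 counts under DMSO and 137, 142 and 146 under SD70. It rose by a log2 fold change of 3.01 (SE 0.177, edgeR adjusted p = 1.90e-16). Its level with SD70, 9.49 FPKM, was near the 9.63 FPKM of Cxcl5 and far below the 1665 FPKM of Cxcl2. Cxcl16, which exists as a membrane-bound and a soluble ligand, had a log2 fold change of 0.27 (edgeR adjusted p = 0.112). The other 6 listed ligands, Pf4 and Cxcl15 among them, had at most 6 counts in a sample.

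Cxcr2, the shared receptor of the 5 chemokines, was near 0. It had 4, 3 and 2 counts under DMSO and 4, 0 and 0 under SD70, and was left out by the filter, as were Cxcr3, Cxcr5 and Cxcr6. Cxcr1, Cxcr4 and Ackr1 were not analysed here. Of the 5 listed receptors, 1 was tested. Ackr3, an atypical receptor that takes up Cxcl12, fell from 1244, 1152 and 1299 counts to 544, 510 and 384, a log2 fold change of -1.27 (SE 0.0737, edgeR adjusted p = 3.79e-15).

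Of 15 genes in a broad list of neutrophil-related cytokines, 13 were listed, 8 were tested, 5 were called higher and 0 lower. Not all of these cytokines act on neutrophils directly. Csf2, which encodes GM-CSF, rose, in normalized counts, from 101 ± 4.34 to 2219 ± 201 (SD, n = 3 each). Csf3, which encodes G-CSF, the main growth factor of neutrophils, rose from 16.5 ± 4.56 to 121 ± 10.5, a log2 fold change of 2.87 (SE 0.197, edgeR adjusted p = 1.25e-14). Il1a, itself an inducer of these chemokines, rose by 2.24 from at most 7 counts per DMSO sample to 19 to 27 per SD70 sample (edgeR adjusted p = 1.84e-06). On log2(FPKM + 1) with limma the log2 fold change of Il1a was 0.65 and the gene was not called. Il23a and Csf1 rose by 2.28 and 1.8. The other 3 tested genes were not called and had negative log2 fold changes, -0.58 for Il11 (edgeR adjusted p = 0.00837), -0.3 for Mif (edgeR adjusted p = 3.77e-06) and -0.13 for Lif (edgeR adjusted p = 0.362). The inducer genes Il1b, Tnf and Il17f had at most 6 counts in a sample and were left out, and Tnf had 0 counts in each DMSO sample against 5, 5 and 6 under SD70.

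Among receptors and adaptors that can induce the cluster, all 18 were tested, 2 were called higher and 0 lower, and the median log2 fold change was 0.21. Tlr2, a receptor for bacterial lipoproteins, rose from 40, 26 and 44 counts to 152, 162 and 154, a log2 fold change of 2.18 (edgeR adjusted p = 5.85e-14). Myd88, the adaptor of Toll-like and interleukin 1 receptors, rose by 1.04 (edgeR adjusted p = 1.72e-14), close to the fold threshold. Without the DMSO sample 1 or the SD70 sample 3 it was no longer called, which left 1 called gene in this list. Without the SD70 sample 1, Il17ra, a receptor of interleukin 17, went from a log2 fold change of 0.96 to 1.01 and was called, which made 3. Il1r1, the receptor of interleukin 1, had a log2 fold change of -0.02 (edgeR adjusted p = 0.76).

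Among NF-kB factors and their regulators, all 16 were tested, 5 were called higher and 0 lower, and the median log2 fold change was 0.76. Nfkbiz, a nuclear cofactor of NF-kB, rose, in normalized counts, from 2228 ± 87.2 to 6871 ± 330 (SD, n = 3 each), which is a log2 fold change of 1.62 (edgeR adjusted p = 7.54e-24). Relb, an NF-kB subunit, rose by 1.43, and the NF-kB inhibitors Nfkbie, Tnfaip3 and Nfkbib rose by 1.37, 1.21 and 1.02. Nfkb1 and Nfkb2, which encode the p105 and p100 precursors, had log2 fold changes of 0.91 and 0.92 and were not called. Nfkbib was no longer called without the DMSO sample 3, at a log2 fold change of 0.97, or without the SD70 sample 3, nor with library totals alone (0.99) or in the limma fits on FPKM (0.96 and 0.99).

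Of the bZIP factors, 12 of 15 were tested, 6 were called higher and 1 lower, and the median log2 fold change was 0.7. Atf3, Ddit3 and Atf4, known from the integrated stress response, rose by 3.74, 2.66 and 2.0, each with an adjusted p-value under 0.01 in edgeR. Junb rose by 1.22 and Cebpg by 1.11, and Cebpb, the gene of C/EBP beta, was called at a log2 fold change of 1.0. Without the DMSO sample 1, the SD70 sample 2 or the SD70 sample 3, Cebpb was at 0.92, 0.97 and 0.94 and was not called, which left 6 called genes in this list. Its call was also lost with library totals alone (0.96), with either other count filter and in both limma fits (0.96 and 0.97), in 8 of 14 alternatives in all. Fosb fell by 1.08 on the log2 scale.

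Among regulators of AU-rich mRNAs, a class to which chemokine transcripts belong, all 13 were tested, 1 was called higher and 0 lower. Arid5a, which stabilizes inflammatory mRNAs, rose, in normalized counts, from 594 ± 48 to 4159 ± 334 (SD, n = 3 each), which is a log2 fold change of 2.81 (edgeR adjusted p = 1.25e-25). Zfp36, which promotes the decay of such mRNAs, had a log2 fold change of 0.1 (edgeR adjusted p = 0.573). Of the heparan sulfate carriers and enzymes, which hold chemokines at the cell surface, 14 of 20 were tested, 1 was called higher and 0 lower. That gene, Glce, rose by 1.16. Of the proteases that can trim chemokines, 8 of 12 were tested, and Mmp13 was called higher by 1.96, with 0 called lower. Without the DMSO sample 1, the DMSO sample 3 or the SD70 sample 2, the called proteases were 2.

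**Figure D5:**
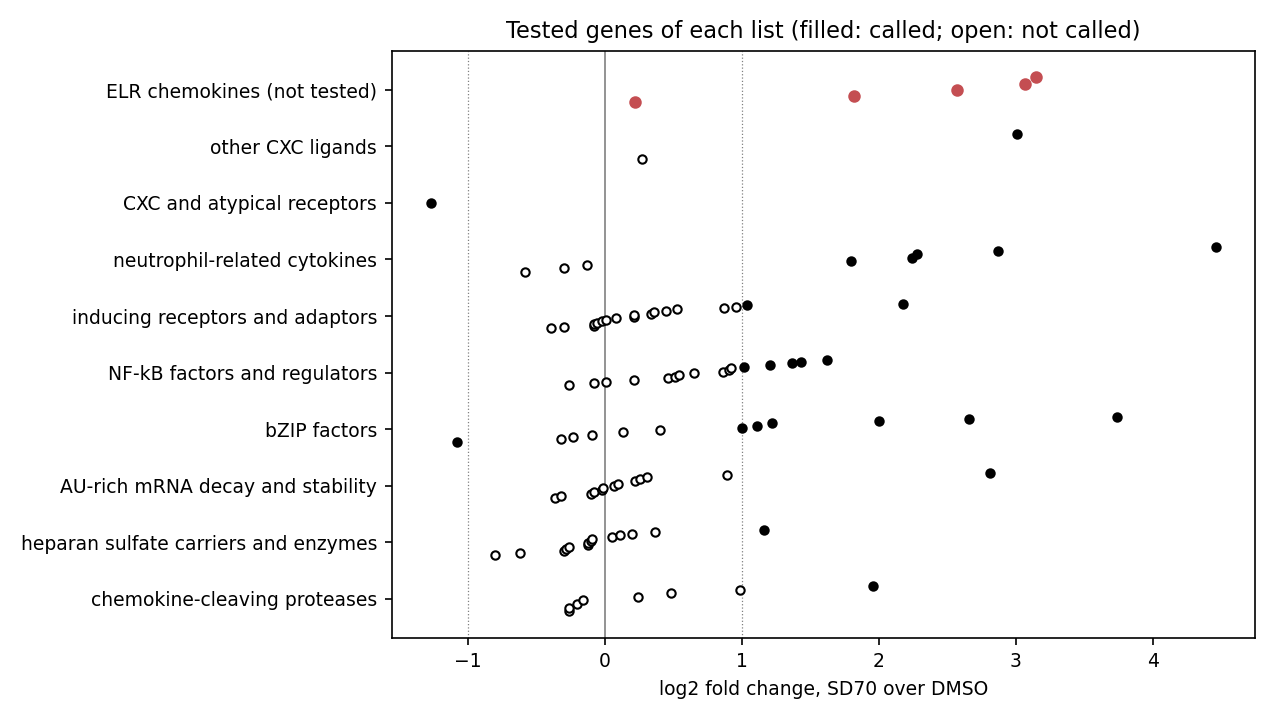
Log2 fold change of SD70 over DMSO (horizontal axis) for the tested genes of the 9 pathway lists (rows), with filled points for called genes, open points for the rest and dotted lines at the fold threshold. The 5 chemokines, in red, were part of the fit but are shown without a test, and called genes of these 9 lists lay on the higher side apart from Ackr3 among the receptors and Fosb among the bZIP factors.

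The genes whose pattern over the 6 samples was nearest to the mean pattern of the 5 chemokines were Tsc22d3, Icosl, Ccl2, Snai2 and Saa3, in that order, among 9619 candidates. The measure was the Euclidean distance between log2 normalized counts relative to the DMSO mean, which was 0.227 for Tsc22d3 and 0.334 for Saa3. With Pearson's r in place of the distance, 1 of these 5 remained among the nearest 5, and 348 genes had r above 0.99, so the order among close genes is loose. Taken singly, Cxcl1 was nearest to Csf1 (distance 0.138), Cxcl2 to Gadd45a (0.183), Cxcl3 to Ccl20 (0.2) and Cxcl5 also to Ccl20 (0.777). Ccl20 attracts cells that carry Ccr6. Ppbp was nearest to Gm14137 (0.0657), a gene with a small log2 fold change of 0.21.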

How the data were processed

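RNA-seq was measured in 6 samples, 3 with DMSO and 3 with SD70, grouped by the sample labels. The authors aligned BGISEQ reads to GRCm38.p6 with HISAT. The submitters' processing notes name StringTie 1.3.3b and the build mm8, which is not the build in the methods. The deposited files hold no coordinates, so the gene positions given here are those of RefSeq. StringTie can quantify transcripts, but the notes give it no role, so whether it made the counts is not given in the sources used here. For each gene and sample the authors deposited an expected count, which was not normalized, and a second value without a stated unit. From its scaling by gene length and depth, that deposited value was taken as FPKM.

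Expected counts were rounded to whole numbers, filtered by filterByExpr and normalized by TMM (factors from 0.9843 to 1.016). Normalized counts were obtained by bringing each sample to the average effective library size. Genes were tested by the quasi-likelihood test of edgeR 4.0.16 (R 4.3.3) on group alone, with Benjamini-Hochberg adjustment over 11552 genes. A gene was called where the adjusted p-value was under 0.01 and the log2 fold change was 1 or more in either direction. The study states the same limits for a p-value and a log2 change, without saying in its text that the p-value was adjusted. Standard errors of log2 fold changes came from the same fit. The fit was tested on simulated data. Within a group, no pair of samples agreed within sampling noise (the chi-square per gene was 2.12 to 4.97), and each of the 6 counted as a replicate.

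The 5 genes, the 9 pathway lists, the 6 marker lists and the motifs were chosen with earlier results of these data known. The text names the 5 genes, up to 5 called genes of each list by absolute log2 fold change, listed genes whose near absence is described, the called and nearest neighbours, and the 5 genes nearest to the mean profile among those averaging 100 normalized counts or more. Cebpb, Fosb, Il1r1, Il17f, Il17ra, Il11, Mif, Lif, Zfp36, Ereg, Nfkb1, Nfkb2, Cxcl16, Odc1, Gadd45a, Ccl20, Gm14137, Krt8, Cd68, Col3a1, Dcn and Pdgfra were added after their values were seen. The other marker lists gave summed normalized counts of 262 to 271 with DMSO and 187 to 220 with SD70 for leukocytes and macrophages, mostly from Cd68. For fibroblasts they were 15950 to 16154 and 13772 to 14910, mostly from Col3a1, with 1 of 5 tested markers called (Pdgfrb, higher by 1.54), while Pdgfra, at a log2 fold change of -1.0, fell just short of a call, and Col3a1 and Dcn were both at -0.19. For endothelium they were 56.5 to 66.2 and 63.6 to 78.1. For epithelium they were 3916 to 4107 and 2573 to 2897, with 1 of 2 tested markers called (Krt18, log2 fold change -1.22). The part of these markers in the results was not tested.

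Alternatives were DESeq2's size factors, library totals alone, all genes with at least 1 count, a minimum of 10 counts in every sample, the Wald test of DESeq2 1.42.0, limma 3.58.1 on log2(FPKM + 1) and log2(FPKM + 0.1), a replicate block, the omission of each sample in turn, an adjusted p-value under 0.05, and no fold minimum.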

Additional observations from a re-analysis of the deposited data

How the results depend on the processing

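Groups of 3 samples and, for Cxcl3, Cxcl5 and Ppbp, low counts limit precision. The log2 fold changes of the 5 chemokines kept their sign in all 14 alternatives. They ranged from 1.76 to 1.89 for Cxcl1, from 2.5 to 2.66 for Cxcl2, from 2.82 to 3.11 for Cxcl3, from 2.34 to 3.29 for Cxcl5 and from 0.11 to 0.31 for Ppbp. On log2(FPKM + 1), where the pseudocount shrinks low genes, Cxcl3 went to 2.82 and Cxcl5 to 2.34, the genes called fell to 283 (202 higher and 81 lower), the called receptors and adaptors went to 1 and the called neighbours to 0. DESeq2's Wald test and log2(FPKM + 0.1) also left 0 called neighbours, and library totals alone left 1 called receptor or adaptor. Without the fold minimum, 5767 genes were called (2976 higher and 2791 lower), among them 10 receptors and adaptors, 13 NF-kB genes, 7 regulators of mRNA decay, 8 heparan sulfate genes, 5 proteases and 8 neighbours. Leaving out 1 sample at a time gave 1 to 3 called receptors and adaptors, 4 to 5 NF-kB genes, 6 to 7 bZIP factors, 1 to 2 proteases and 0 to 1 neighbours, and Ankrd17, a neighbour at -0.03, ranged from -0.06 to 0.01, the latter without the SD70 sample 2. Il1r1, at -0.02, turned to 0.01 without the DMSO sample 1 and to 0.02 without the SD70 sample 2. Il1a, Myd88, Nfkbib, Krt18, Btc, Cebpb and Fosb lost their calls in 26 cases, Il17ra and Pdgfra gained a call in 9, and 787 other values of 59 named genes kept their direction and call. The cause was not tested. As a share of FPKM the 5 genes took 0.39% with DMSO and 1.5% with SD70. By counts in place of FPKM, the mix within the cluster was 84.5% and 76.3% Cxcl1, 15% and 22.9% Cxcl2, 0.0965% and 0.217% Cxcl5, 0.192% and 0.0569% Ppbp, for DMSO and SD70 in that order, and 0.517% Cxcl3 with SD70.

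The labels number the samples 1 to 3 in both groups. Adding that number as a replicate block gave 692 called genes in place of 681, and 0 of 77 results changed their call. Correlations of the deviations of samples with the same number were over 0.1 for every pair among genes with a mean count of at least 50 (0.12, 0.2 and 0.16) or 100 (0.19, 0.31 and 0.19) but not over all genes (-0.15, 0.02 and 0.13) or at a minimum of 200 (0.15, -0.03 and -0.02), so the samples were taken to share only a number. Samples matched their own number best in 3 of 3 pairs at the minimums of 50 and 100 and in 1 of 3 over all genes.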
